A study of Homo sapiens with 4 samples.

Results

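The cytosolic translation initiation and elongation factors were examined in U251 cells, an established human glioblastoma line, after depletion of PRMT3, an arginine methyltransferase of the cytoplasm that methylates a protein of the small ribosomal subunit. The members were taken by symbol, as every gene of the count table named EIF1 to EIF6 or EEF1 or EEF2 followed by further letters or digits, without the eIF2 kinases (EIF2AK) and without EEF1E1. The rule found 68 of 15575 genes, of which 60 are protein coding and 8 are pseudogenes. EEF2 itself has no character after its number, lies outside the rule and is given only for context.

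Initiation factors bring the initiator tRNA, the small ribosomal subunit and the capped mRNA together, scan for the start codon and then allow the large subunit to join. eIF2 carries the initiator tRNA and is recharged by eIF2B, eIF3 is the large scaffold on the small subunit, and the eIF4 group binds the cap and unwinds the leader. Elongation factor eEF1A then delivers each aminoacyl-tRNA, the eEF1B subunits recharge it with GTP, and eIF5A eases the ribosome past difficult stretches.

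The 2 Ctrl libraries came from U251 cells with a lentiviral control vector, which the sample titles call pGreen, and the 2 PRMT3-KD libraries from U251 cells with a lentiviral PRMT3 shRNA, both at 72 h as stated for the expression heatmap. Both groups share the cell line, the lentiviral transduction and the library kit. The shRNA used for these libraries is not named, the experiment covers 1 line, and nothing says that libraries 1 and 2 of a group were separate cultures, so the p-values measure the spread between these libraries, which may be technical. In bulk RNA, fewer cells with a transcript and less of it per cell cannot be told apart.

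The libraries held 24804250 to 29756313 counts. Expression is given as CPM, counts scaled to the library total after edgeR's TMM correction, with the SD over 2 libraries. A gene was called higher or lower when edgeR's quasi-likelihood test gave a Benjamini-Hochberg adjusted p under 0.05 over 13172 genes and the change was over 1.5-fold. With 2 libraries a group, the smallest two-sided p of an exact permutation test is 0.333. PRMT3 was at 19.3 and 19.5 CPM in Ctrl and 3.03 and 1.58 CPM in PRMT3-KD, a log2 fold change of -3.08 (SE 0.314, edgeR adjusted p = 0.0177). The Ctrl libraries lay far closer to each other than the PRMT3-KD libraries did, with a biological coefficient of variation of 0.0107 against 0.204. Glioma markers VIM, CD44, NES, SOX2, SOX9 and EGFR were expressed in all libraries, GFAP was at 13.2 and 14.4 CPM (without TMM) in Ctrl and 1.29 and 5.14 in PRMT3-KD, and of the immune markers PTPRC and CD14 were under 0.5 while CD68, a lysosomal protein that other cells also express, was at 24.3 and 25.9 in Ctrl and 30.4 and 28.4 in PRMT3-KD. Of the endothelial markers, CDH5 was at 5.11 to 5.36 in 3 libraries and 24.3 in PRMT3-KD library 2. VWF was at 2.37 and 2.09 in Ctrl and 1.21 and 2.35 in PRMT3-KD, and PECAM1 was not in the table. The part of CDH5 in the results was not tested.

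Most translation factors were close to their Ctrl level in PRMT3-KD cells. Of the 60 members that could be tested, 3 rose past the threshold, namely EIF3J, EEF1A2 and the EEF1A1 pseudogene EEF1A1P5. Of all tested genes 4.97% were called higher, which over 60 genes comes to the same number. By edgeR 0 members were called lower, where 5.97% of all tested genes were. At an unadjusted edgeR p under 0.05, in either direction, there were 13 of 60 members (21.7%) and 37.6% of all tested genes. Of these members 2 were lower (EIF1AX and EEF1D, 3.33% of the 60). DESeq2 and limma-voom also called 0 members lower. With no fold limit EIF5A2 was added, so 4 of 60 members passed the adjusted p alone (6.67%), all 4 higher, where 17.3% of all tested genes did (8.39% higher and 8.91% lower). The 8 members that were not tested had too few counts. They were 6 pseudogenes (EEF1AL1, EEF1B4, EEF1DP3, EIF2S2P3, EIF3LP2 and EIF5AP3), EIF4EBP3, and EIF1AY, which is only counted here.

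The size of the changes gives the same picture for well expressed members. Over the 53 members that averaged 10 CPM or more, the median absolute log2 fold change was 0.150 and 43 (81.1%) moved by less than 0.25. Over all 9459 genes at that level the median absolute change was 0.265 and 47.5% moved by less than 0.25. Changes of over 1.5-fold, with no test applied, were seen in 5.66% of these members and 17.0% of these genes. The 2 Ctrl libraries differed by a median of 0.0247 on the log2 scale over these members and the 2 PRMT3-KD libraries by 0.168. Over all genes at that level these gaps were 0.0388 and 0.201, so the members also differed less between libraries of a group. These are gaps between single libraries, while each fold change compares groups of 2 libraries, so the sizes cannot be set against each other directly.

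The signed median over the 60 tested members was 0.09 on the log2 scale, beside 0.01 over all tested genes, with 41 members above 0 and 19 below. Both PRMT3-KD libraries were above both Ctrl libraries in 25 members (41.7%, where 33.3% of all tested genes were) and below both in 11 (18.3%, where 33.8% were). The groups overlapped in the remaining 24. All members together took 2.09% and 2.08% of the counts in Ctrl, and after PRMT3-KD these shares were 2.25% and 2.16%. Without EEF1A1, the most abundant member, the shares were 1.28% in both Ctrl libraries and 1.38% and 1.25% in PRMT3-KD, which overlap.

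**Figure D1:**
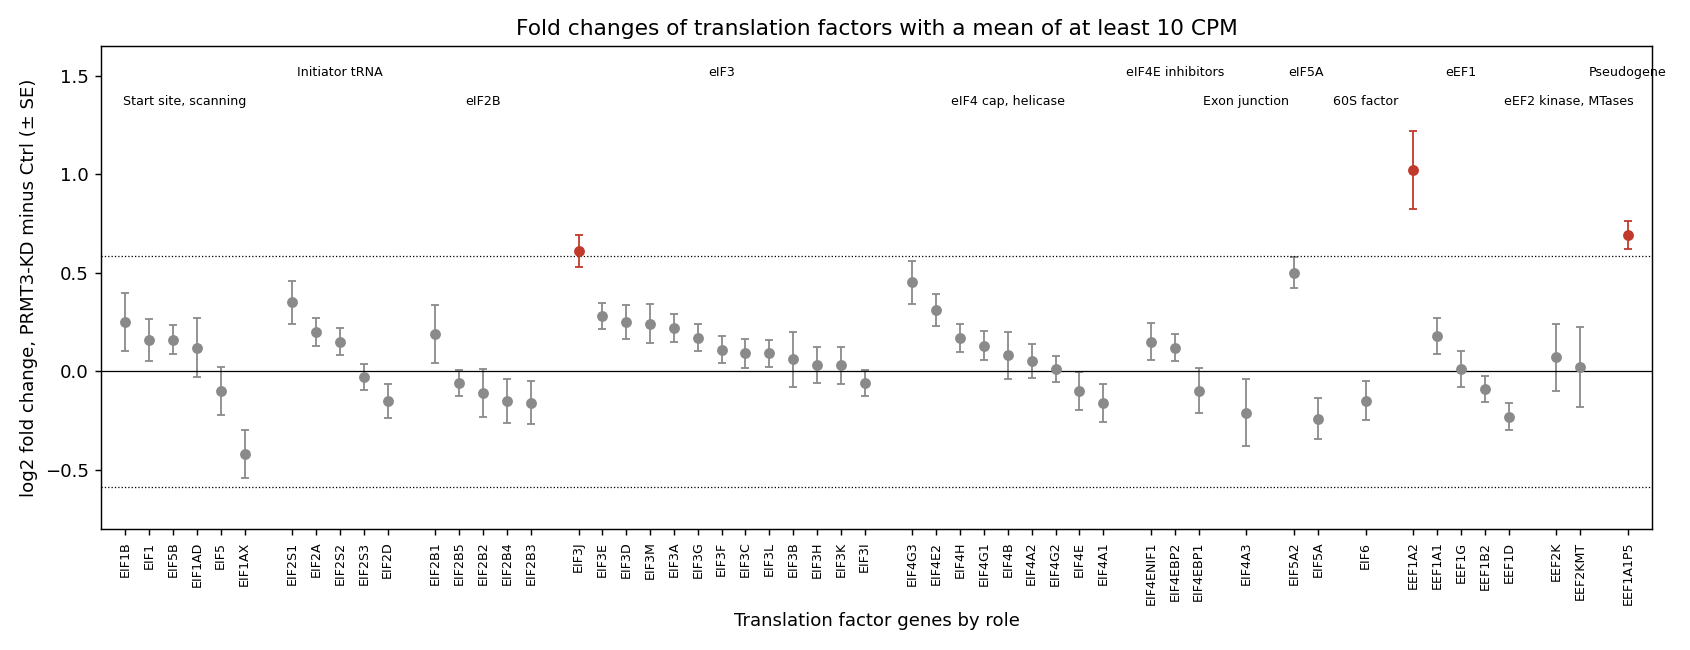
The log2 fold change (PRMT3-KD minus Ctrl, bars ± SE from the edgeR fit over 2 libraries a group) is plotted for the 53 members with a mean of at least 10 CPM, grouped by role, with dotted lines at 1.5-fold. The 3 called members are red (EIF3J, EEF1A2 and EEF1A1P5), and the other 50 lie between -0.42 and 0.50.

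The first bases of a transcript bear on how it is translated, since mRNAs that begin with a C and an unbroken run of pyrimidines (terminal oligopyrimidine mRNAs) include many of the translation machinery and respond to mTOR. RefSeq gene starts (GRCh38.p14) were listed for 47 of the 68 members, 45 of them tested. A start with C followed by at least 4 more C or T was found in 11 of these 45 (24.4%), and in 7.4% of the 10103 tested genes with a listed start. Starts are given here for 6 members with such a run, in capitals, and for 3 members without it, among them the called EIF3J.
EEF1A1: CTTTTTCgcaacgggtttgccgccagaaca
EEF1B2: CCTTTTTCCTCTCTTCagcgtggggcgccc
EIF3D: CTCTTTTCCTggtttctcaagagtgctgct
EIF3F: CTTCTTTCTCgacaagatggccacaccggc
EIF3M: CTTTTCCggtcggcgtggtcttgcgagtgg
EIF4A2: CTTTTCagtcgggcgctgagtggtttttcg
EIF3J: aactcctcgctagctctccctctcacacac
EIF5A2: ggaactgccgcggccgccaccgccgctgcc
EIF1AX: gccatttgctgccgccgagcgtggacgcag

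These stretches lie at chr6:73521003-73521032 (minus strand) for EEF1A1, chr2:206159895-206159924 (plus) for EEF1B2, chr22:36529137-36529166 (minus) for EIF3D, chr11:7987337-7987366 (plus) for EIF3F, chr11:32583831-32583860 (plus) for EIF3M and chr3:186783577-186783606 (plus) for EIF4A2. Those without the run lie at chr15:44537147-44537176 (plus) for EIF3J, chr3:170908608-170908637 (minus) for EIF5A2 and chrX:20141809-20141838 (minus) for EIF1AX. The 11 members with the run had a median log2 fold change of 0.08, from -0.15 to 0.25. The 34 without it had a median of 0.07, from -0.42 to 0.61. The 8 members listed as known terminal oligopyrimidine mRNAs were EEF1A1, EEF1B2, EEF1D, EEF1G, EIF3E, EIF3F, EIF3H and EIF4B. By edgeR 0 of these 8 were called, where 4.97% of all tested genes were called higher and 5.97% lower. The log2 fold changes of these 8 ran from -0.23 to 0.28 with a median of 0.06. Of these, EEF1A1, EEF1B2, EIF3F and EIF4B had the run at the RefSeq start and EEF1G did not. No start was listed for EEF1D, EIF3E and EIF3H. Transcript start use in these cells was not measured, so the run is a property of the RefSeq start only.

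In the eIF3 complex, which holds the small subunit ready for the mRNA, EIF3J alone was called. EIF3J, the loosely bound subunit that is also known to take part in ribosome recycling, was at 126 and 130 CPM in Ctrl and 205 and 187 CPM in PRMT3-KD. Both PRMT3-KD libraries were well above both Ctrl libraries. The log2 fold change was 0.61 (SE 0.0814, edgeR adjusted p = 0.0214), just over the 1.5-fold limit, and it was 0.58 with scaling by library totals only and 0.55 without PRMT3-KD library 1, both under that limit. EIF3J (ENSG00000104131) lies on chromosome 15 at 44829323 to 44855227 (GRCh37) and shares exonic sequence with SPG11 on the opposite strand, and whether the counting used strand is not given in the sources used here. SPG11 itself was at 67.0 and 66.5 CPM in Ctrl and 61.4 and 71.7 CPM in PRMT3-KD, which overlap.

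The other eIF3 subunits moved little. The 12 genes other than EIF3J and EIF3CL had log2 fold changes between -0.06 (EIF3I) and 0.28 (EIF3E), with a median of 0.10. With EIF3J counted, 1 of 13 subunit genes (EIF3J itself) passed an adjusted p of 0.05 by edgeR, which 17.3% of all tested genes did. Both PRMT3-KD libraries were above both Ctrl libraries in 9 of these 13 and below in 1, where 33.3% and 33.8% of all tested genes were. EIF3E, a subunit of the complex's core, was at 149 and 155 CPM in Ctrl and 185 and 183 CPM in PRMT3-KD (adjusted p = 0.0602 by edgeR). EIF3A, the largest core subunit, was at 642 and 644 CPM in Ctrl and 730 and 770 CPM in PRMT3-KD, a log2 fold change of 0.22 (SE 0.0708). EIF3C, another core subunit, was at 348 and 355 CPM in Ctrl and 386 and 361 CPM in PRMT3-KD.

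EIF3B, the core subunit that docks EIF3G and EIF3I, showed how far the PRMT3-KD libraries could part, with 383 CPM in both Ctrl libraries, 450 CPM in PRMT3-KD library 1 and 348 CPM in library 2. EIF3I had the highest level per length of the complex, 260 CPM per kb of transcript in Ctrl and 249 in PRMT3-KD. EIF3CL, a near-identical copy of EIF3C, had 12 and 0 counts in Ctrl and 39 and 0 in PRMT3-KD. Reads of the pair can be placed on either copy, and the values of EIF3CL are uncertain.

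**Figure D2:**
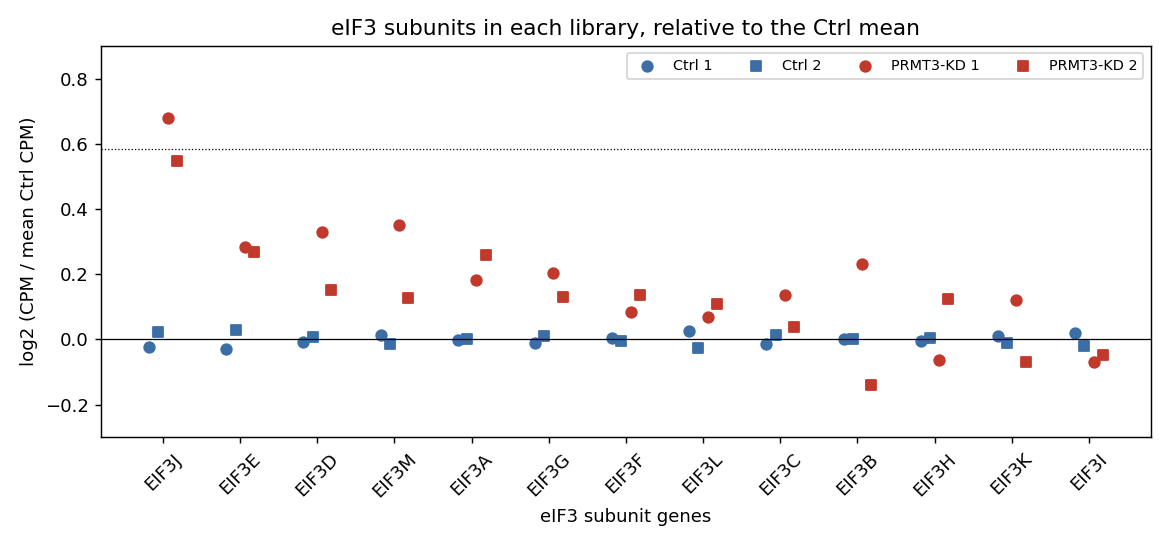
Each of the 13 eIF3 subunit genes without EIF3CL is plotted in the 4 libraries as log2 of CPM over the mean of the 2 Ctrl libraries, with circles for library 1 and squares for library 2. EIF3J stands near the dotted 1.5-fold line in both PRMT3-KD libraries, EIF3E follows at a lower level, and EIF3B is above 0 in one PRMT3-KD library and below 0 in the other.

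Of the elongation factor 1 genes, EEF1A2 rose. EEF1A2 encodes the eEF1A form known from neurons and muscle and raised in some tumours. It was at 57.3 and 53.7 CPM in Ctrl and 91.7 and 133 CPM in PRMT3-KD. The groups did not overlap, and the 2 PRMT3-KD libraries stood 0.53 apart on the log2 scale, the widest gap among the 53 well expressed members. The log2 fold change was 1.02 (SE 0.196, edgeR adjusted p = 0.0381), and it was 0.72 without PRMT3-KD library 2 and 1.26 without library 1. EEF1A2 (ENSG00000101210) lies on chromosome 20 at 62119366 to 62130592 (GRCh37).

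EEF1A1, the widespread eEF1A form, was the most abundant member by far. It was at 7995 and 7961 CPM in Ctrl and 8525 and 9611 CPM in PRMT3-KD. Both PRMT3-KD libraries were higher, but the log2 fold change of 0.18 (SE 0.0908, edgeR adjusted p = 0.217) did not pass the threshold. Per kb of transcript it stood at 2272 CPM in Ctrl, ahead of EEF1G at 620, EIF4A1 at 510 and EIF5A at 394. EEF1A1 took 0.808% and 0.804% of all counts in Ctrl and 0.873% and 0.918% in PRMT3-KD.

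The processed pseudogene EEF1A1P5 (ENSG00000196205, chromosome 9 at 135894873 to 135896261, GRCh37) was called higher. It was at 59.0 and 58.0 CPM in Ctrl and 94.2 and 95.1 CPM in PRMT3-KD, with close values within each group and none shared between them. The log2 fold change was 0.69 (SE 0.0697, edgeR adjusted p = 0.0172). EEF1A1P5 is a copy of the EEF1A1 mRNA, its counts were 0.723% to 1.09% of those of both genes together, and how the authors' counting shared reads between them is not given, so its value is uncertain. Without it, 2 of the 58 tested protein coding members were called.

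The eEF1B subunits, which exchange GDP for GTP on eEF1A, did not pass the threshold. EEF1D was at 310 and 308 CPM in Ctrl and 261 and 267 CPM in PRMT3-KD, with both PRMT3-KD libraries lower and a log2 fold change of -0.23 (SE 0.0663, edgeR adjusted p = 0.0841). EEF1B2 had a log2 fold change of -0.09 and EEF1G of 0.01. Outside the rule, EEF2, which moves the ribosome along the mRNA, was at 3024 and 3097 CPM in Ctrl and 3561 and 3718 CPM in PRMT3-KD (log2 fold change 0.25, edgeR adjusted p = 0.0813). EEF2K, the kinase that inhibits eEF2, was at 34.8 and 35.4 CPM in Ctrl and 31.2 and 42.8 CPM in PRMT3-KD, which overlap. The methyltransferase genes EEF2KMT, EEF1AKMT1 and EEF1AKMT4 had log2 fold changes of 0.02 to 0.37 with SE from 0.202 to 0.408, and all 3 overlapped between groups.

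For eIF5A, the factor that carries the amino acid hypusine, the 2 paralogs had log2 fold changes of opposite sign, a difference that was not tested. EIF5A2 was at 30.2 and 30.6 CPM in Ctrl and 42.5 and 43.5 CPM in PRMT3-KD, with tight groups that did not overlap. Its log2 fold change was 0.50 (SE 0.0800, edgeR adjusted p = 0.0283), past the adjusted p but under 1.5-fold. EIF5A, the main form, was at 504 and 493 CPM in Ctrl and 458 and 386 CPM in PRMT3-KD, both lower, with a log2 fold change of -0.24 (SE 0.106, edgeR adjusted p = 0.182). EIF5AL1 was at 1.13 to 1.70 CPM in all libraries. DHPS, which takes part in making hypusine on eIF5A and is no member, was at 52.6 and 52.8 CPM in Ctrl and 40.9 and 40.1 CPM in PRMT3-KD. It was lower at an edgeR adjusted p of 0.0404 with a log2 fold change of -0.38.

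**Figure D3:**
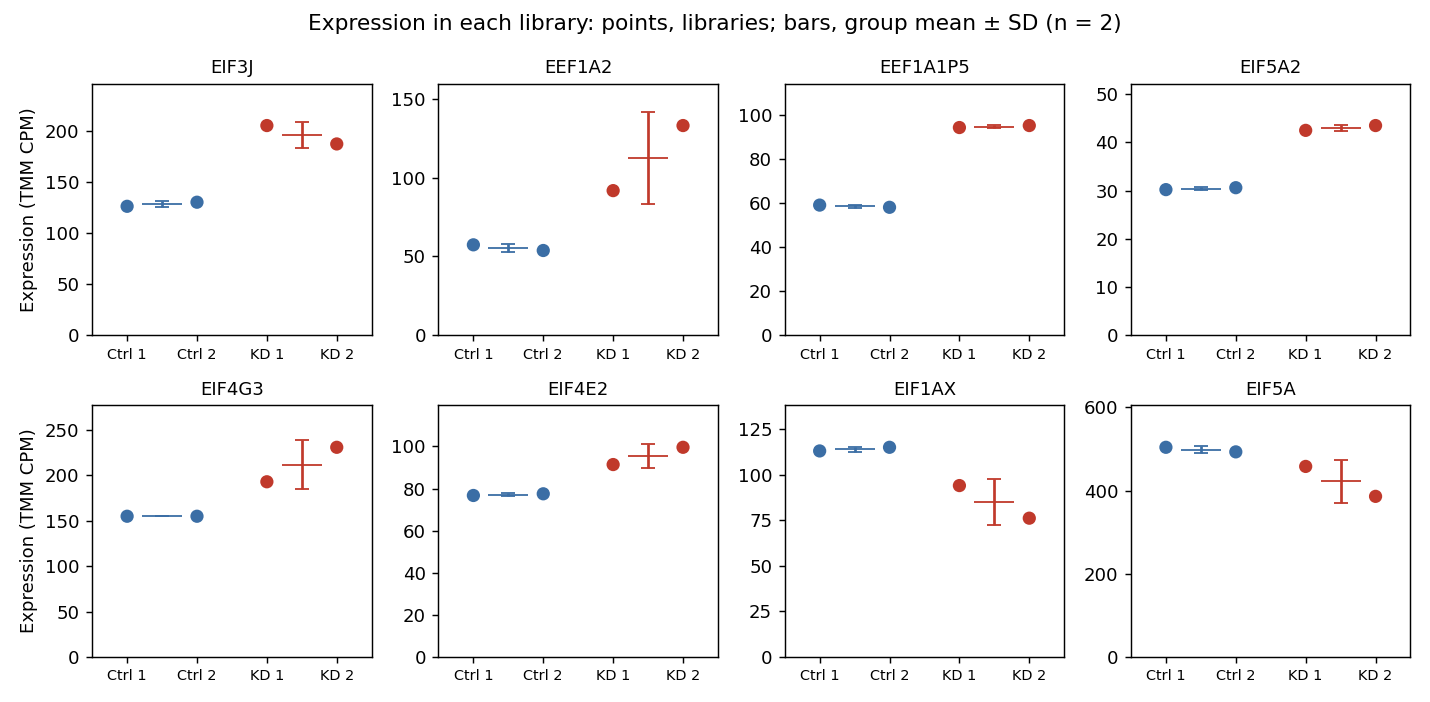
CPM (TMM scaled) in each library is plotted for 8 members, with points for libraries and bars for the group mean ± SD (n = 2), each panel on its own axis from 0. EIF3J, EEF1A2, EEF1A1P5 and EIF5A2 are higher in both PRMT3-KD libraries and passed the edgeR adjusted p, while EIF4G3, EIF4E2, EIF1AX and EIF5A show groups that do not overlap without passing it by edgeR.

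In the cap-binding and helicase group (eIF4) 0 of 10 genes passed the edgeR threshold, with log2 fold changes from -0.16 to 0.45 and a median of 0.08. Of all tested genes 4.97% were called higher and 5.97% lower, so 0 calls in so few genes says little about the group. The cap-binding protein gene EIF4E was at 95.7 and 86.4 CPM in Ctrl and 89.3 and 80.9 CPM in PRMT3-KD, which overlap. The scaffold EIF4G1 was at 1223 and 1238 CPM in Ctrl and 1396 and 1301 CPM in PRMT3-KD, and the helicase EIF4A1, the highest of the group per length, was at 895 and 900 CPM in Ctrl and 859 and 743 CPM in PRMT3-KD. These 3 genes of the cap-binding complex had log2 fold changes of -0.10, 0.13 and -0.16.

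EIF4G3, a second eIF4G scaffold, had the largest change of the group. It was at 155 CPM in both Ctrl libraries and 193 and 231 CPM in PRMT3-KD. The log2 fold change was 0.45 (SE 0.109) with an adjusted p of 0.0581 by edgeR, 0.0232 by DESeq2 and 0.0139 by limma-voom, so its passing of 0.05 depended on the tool. EIF4E2, the cap-binding homologue that is known to repress translation of some mRNAs, was at 76.7 and 77.5 CPM in Ctrl and 91.4 and 99.6 CPM in PRMT3-KD (log2 fold change 0.31, edgeR adjusted p = 0.0648). EIF4G2, the scaffold that lacks the EIF4E site, had nearly the same level in all libraries, from 1321 to 1339 CPM.

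The inhibitors of eIF4E were close to Ctrl. EIF4EBP1, which holds eIF4E away from eIF4G until mTOR phosphorylates it, was at 48.4 and 50.1 CPM in Ctrl and 50.1 and 42.0 CPM in PRMT3-KD. Its relative EIF4EBP2 was at 137 and 140 CPM in Ctrl and 150 CPM in both PRMT3-KD libraries, a log2 fold change of 0.12 (SE 0.0666). EIF4ENIF1, which carries eIF4E into the nucleus, had a log2 fold change of 0.15. None of these 3 genes passed the edgeR threshold, where 4.97% of all tested genes were called higher and 5.97% lower. EIF4A3, a helicase of the exon junction complex with an initiation factor's name, was at 69.0 and 69.2 CPM in Ctrl and 69.2 and 50.3 CPM in PRMT3-KD. EIF6, which keeps the large subunit from joining too early, was at 123 and 124 CPM in Ctrl and 120 and 103 CPM in PRMT3-KD (log2 fold change -0.15, edgeR adjusted p = 0.334).

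Among the genes for initiator tRNA delivery 0 of 6 were called by edgeR, where 4.97% of all tested genes were called higher and 5.97% lower. EIF2S1, the eIF2 alpha subunit that stress kinases phosphorylate, was at 124 and 123 CPM in Ctrl and 171 and 143 CPM in PRMT3-KD. Both PRMT3-KD libraries were higher, with a log2 fold change of 0.35 (SE 0.109, edgeR adjusted p = 0.0936, 0.0840 by DESeq2 and 0.0404 by limma-voom). The beta subunit EIF2S2, the highest of this group per length, was at 201 and 194 CPM in Ctrl and 217 and 221 CPM in PRMT3-KD, and the gamma subunit EIF2S3 had a log2 fold change of -0.03. EIF2S3L, with the largest fitted change of the group (-0.63, SE 0.456), was at 0.528 to 1.23 CPM and too low to read.

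The 5 eIF2B subunits, which recharge eIF2 with GTP, ran from -0.16 (EIF2B3) to 0.19 (EIF2B1) in log2 fold change with a median of -0.11. EIF2B5, the catalytic subunit, was at 92.8 and 91.2 CPM in Ctrl and 88.8 and 88.3 CPM in PRMT3-KD, a log2 fold change of -0.06 (SE 0.0682). EIF2B1 was at 51.9 and 53.4 CPM in Ctrl and 67.9 and 52.2 CPM in PRMT3-KD, so its difference rested on PRMT3-KD library 1.

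EIF1AX, which helps the small subunit scan to the start codon, had the lowest log2 fold change of the well expressed members. It was at 113 and 115 CPM in Ctrl and 94.0 and 76.1 CPM in PRMT3-KD. Both PRMT3-KD libraries were lower, with a log2 fold change of -0.42 (SE 0.123) and an adjusted p of 0.0820 by edgeR, 0.0514 by DESeq2 and 0.0293 by limma-voom. EIF1, the other scanning factor and the highest of this group per length (167 CPM per kb in Ctrl), was at 386 and 394 CPM in Ctrl and 474 and 398 CPM in PRMT3-KD. Of the 6 tested start site genes 0 were called by edgeR, where 4.97% of all tested genes were called higher and 5.97% lower.

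Several factors are encoded by a pair of paralogs, and the share of each pair's counts taken by 1 of the forms was computed in each library. The 7 pairs were chosen after their values were seen, and the shares are a description with no test, which does not depend on the scaling between libraries. EEF1A2 took 0.711% and 0.670% of the EEF1A1 and EEF1A2 counts in Ctrl and 1.06% and 1.36% in PRMT3-KD. EIF5A2 took 5.65% and 5.84% of its pair in Ctrl and 8.48% and 10.1% in PRMT3-KD. As the log2 ratio of the second paralog to the first, PRMT3-KD minus Ctrl, the difference was 0.81 for EEF1A2 and 0.75 for EIF5A2.

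In the other pairs the log2 ratio differed by 0.09 to 0.41, although some of their shares moved by more percentage points. EIF4E2 took 44.5% and 47.3% of the EIF4E and EIF4E2 counts in Ctrl and 50.6% and 55.2% in PRMT3-KD. EIF4G3 took 11.3% and 11.1% of the EIF4G1 and EIF4G3 counts in Ctrl and 12.1% and 15.1% in PRMT3-KD. EIF4A2 stood at 35.3% and 35.0% of its pair in Ctrl, and its PRMT3-KD values were 35.5% (library 1) and 41.7% (library 2). EIF4EBP2 stood at 73.9% and 73.6% in Ctrl and at 74.9% and 78.1% in PRMT3-KD, and EIF1B between 6.32% and 6.93% in all 4 libraries. The 95% Wilson intervals of both PRMT3-KD libraries, which cover counting error only, lay above those of both Ctrl libraries for EEF1A2, EIF5A2, EIF4E2 and EIF4G3, and not for EIF4A2, EIF4EBP2 and EIF1B.

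**Figure D4:**
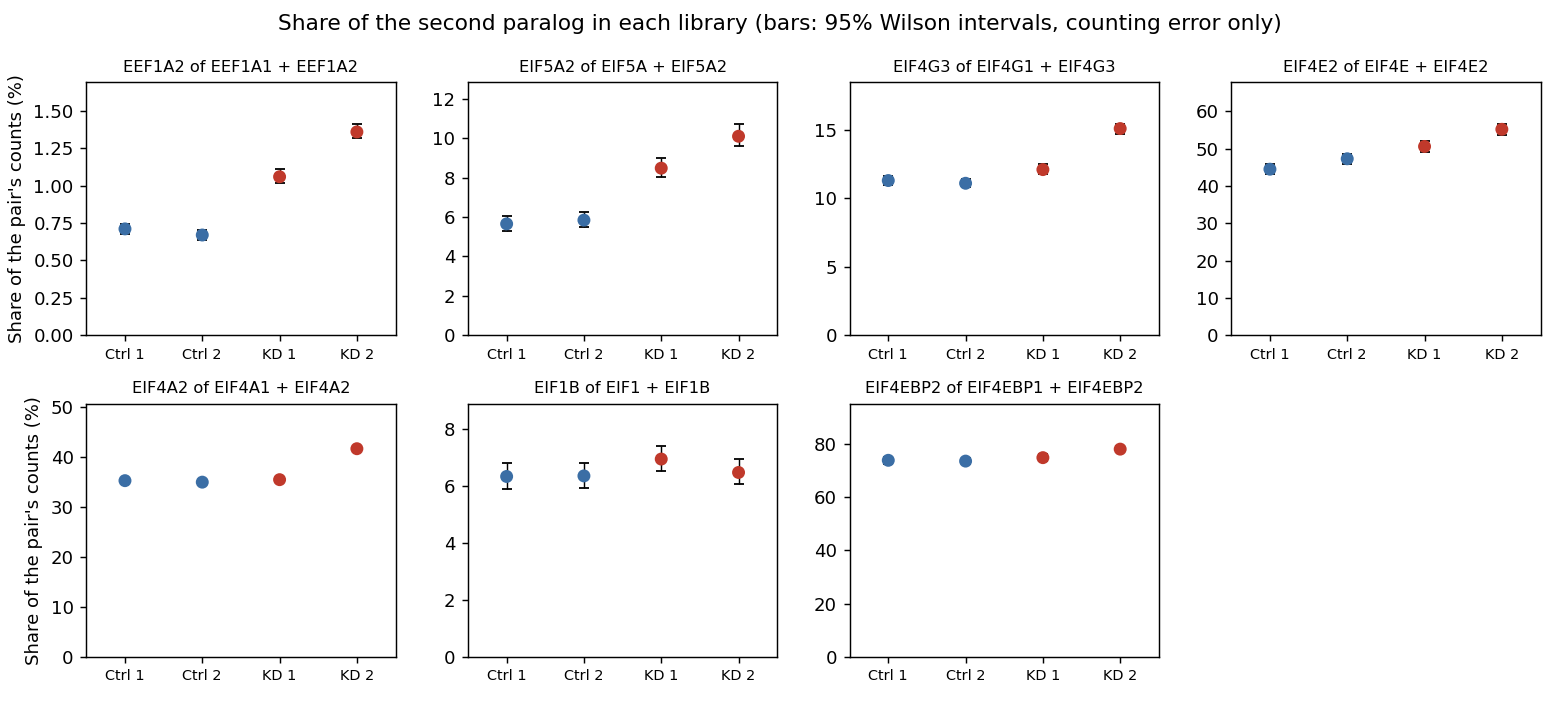
The share of each pair's counts taken by the named paralog (percent, axis from 0) is plotted in each library for 7 pairs, with 95% Wilson intervals for counting error. EEF1A2, EIF5A2, EIF4E2 and EIF4G3 stand higher in both PRMT3-KD libraries with intervals apart from those of Ctrl, while EIF1B stays within 6.32% to 6.93%.

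Other genes of translation outside the rule were given by a list of 48, of which 47 were in the table and tested. By edgeR 3 were called higher and 3 lower, 6.38% each, where 4.97% and 5.97% of all tested genes were. EIF2AK1, the heme-regulated eIF2 kinase, was at 208 and 206 CPM in Ctrl and 93.0 and 107 CPM in PRMT3-KD, a log2 fold change of -1.05 (SE 0.0942, adjusted p = 0.0154). The other eIF2 kinase genes EIF2AK2, EIF2AK3 and EIF2AK4 had log2 fold changes of 0.22, 0.17 and -0.14. They were not called (edgeR adjusted p = 0.117, 0.214 and 0.342). Both PRMT3-KD libraries were above both Ctrl libraries for EIF2AK2 and EIF2AK3, as in 33.3% of all tested genes. For EIF2AK4 both were below, as in 33.8% of all tested genes.

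Of the 9 genes listed under the mTOR arm, edgeR called 2 lower (RPS6KB1 and MLST8) and 1 higher (PDCD4), where 5.97% and 4.97% of all tested genes were. The arm acts on eIF4E through its binding proteins, while MKNK1 and MKNK2, placed in the same list, encode kinases of eIF4E itself. Past the adjusted p but under 1.5-fold, RPTOR was lower (log2 fold change -0.34, edgeR adjusted p = 0.0495), and the eIF4E kinase genes MKNK1 and MKNK2 were higher (0.42 and 0.37, edgeR adjusted p = 0.0401 and 0.0451). RPS6KB1, the S6 kinase, was at 59.3 and 58.4 CPM in Ctrl and 35.9 and 33.8 CPM in PRMT3-KD (log2 fold change -0.76, edgeR adjusted p = 0.0182). MLST8, a subunit of the mTOR complexes, was at 47.0 and 47.4 CPM in Ctrl and 28.7 and 29.8 CPM in PRMT3-KD (log2 fold change -0.69, edgeR adjusted p = 0.0193). MTOR itself was at 167 and 171 CPM in Ctrl and 184 and 160 CPM in PRMT3-KD, which overlap, as did the groups of RPS6KB2 and LARP1.

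PDCD4, which inhibits the helicase eIF4A, rose from 14.8 and 15.1 CPM in Ctrl to 21.8 and 27.5 CPM in PRMT3-KD (log2 fold change 0.72, edgeR adjusted p = 0.0417). PAIP2B, an inhibitor of the poly(A)-binding protein, rose from 1.30 and 1.09 CPM to 2.87 and 3.38 CPM (log2 fold change 1.39, edgeR adjusted p = 0.0329). It had only 36 and 30 counts in Ctrl and 73 and 96 in PRMT3-KD. PAIP1, listed in the same group, was at 151 and 152 CPM in Ctrl and 197 and 187 CPM in PRMT3-KD. Its log2 fold change of 0.34 passed the adjusted p (edgeR adjusted p = 0.0432) but was under 1.5-fold. SECISBP2, needed to read selenocysteine codons, rose with a log2 fold change of 0.65 (edgeR adjusted p = 0.0208). PABPC1, the poly(A)-binding protein, was at 1115 and 1105 CPM in Ctrl and 931 and 1135 CPM in PRMT3-KD, which overlap.

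**Figure D5:**
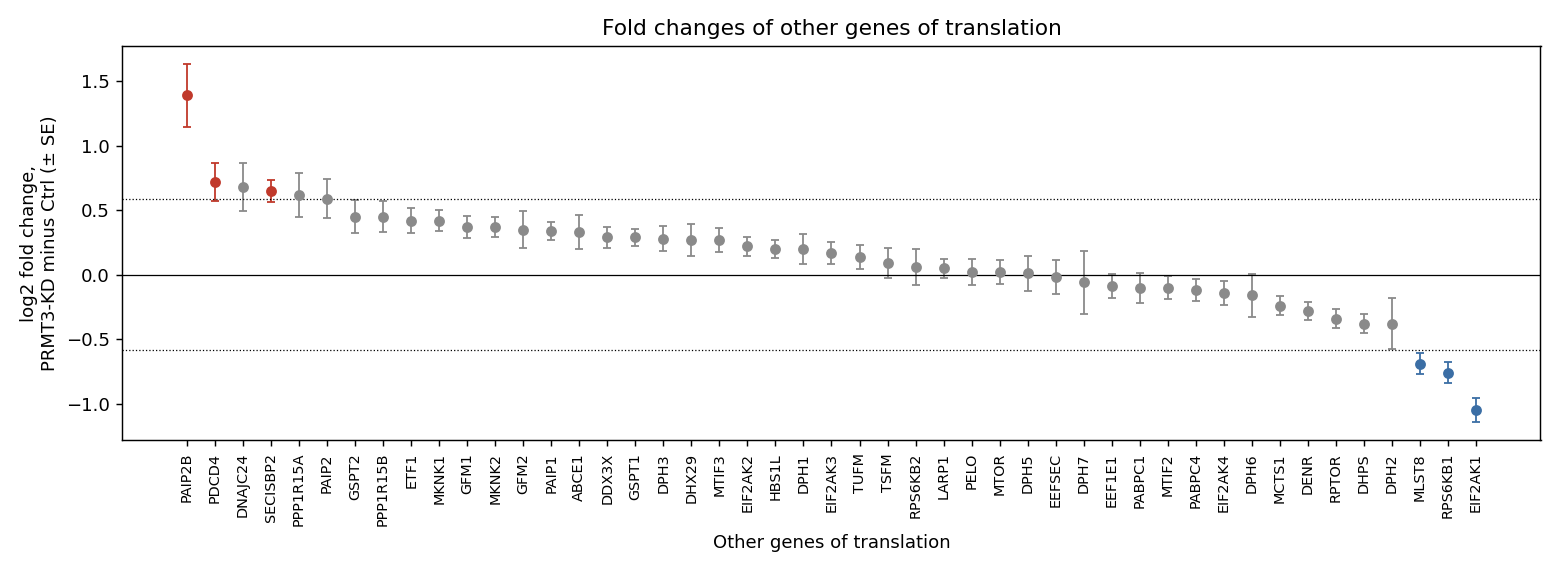
The log2 fold change (PRMT3-KD minus Ctrl, bars ± SE from the edgeR fit) is plotted for the 47 other genes of translation, in order of size, with dotted lines at 1.5-fold. The genes called higher (red) are PAIP2B, PDCD4 and SECISBP2, and those called lower (blue) are MLST8, RPS6KB1 and EIF2AK1.

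The calls above rest on both Ctrl libraries, which lay far closer together than the PRMT3-KD libraries. With only 1 Ctrl library, the spread came from the PRMT3-KD pair alone. When Ctrl library 1 or 2 was left out, edgeR called 0 genes of the whole table (lowest adjusted p = 0.0760 and 0.0540, with 1842 and 1868 genes at an unadjusted p under 0.05), so none of the members or other genes kept its call. The fold changes themselves stayed close, with log2 values without Ctrl library 1 and 2 of 0.59 and 0.64 for EIF3J, 1.06 and 0.97 for EEF1A2, 0.71 and 0.68 for EEF1A1P5 and -1.05 and -1.06 for EIF2AK1. RNA levels of translation factors do not give their protein levels or activity, which were not measured here.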

How the data were processed

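RNA-seq of 2 Ctrl and 2 PRMT3-KD libraries of U251 cells was grouped by the sample labels. The authors deposited unnormalized whole-number counts per gene, made per the labels and methods with CASAVA, TopHat (hg19) and Cufflinks, whose versions, annotation and strand setting are not given in the sources used here. Of 15576 entries, 1 duplicate was removed, and 0 sample columns were left unused. GENCODE 44 in its GRCh37 version held 99.9% of the identifiers.

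The whole table was fitted with edgeR 4.0.16 under R 4.3.3 (filterByExpr with a minimum count of 10 and a minimum total of 15, TMM, glmQLFit and glmQLFTest), with a dispersion shared by both groups. Each standard error was derived from a gene's log2 change and its F value. Levels per kb use the length of the canonical transcript. The tests were also run on simulated data with 200 changed genes. The outcome is not given here, and no result above rests on it. The total counts of 24804250 to 29756313 per library make genes with few counts imprecise, and intervals cover counting error only.

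The members, roles and gene lists were chosen with earlier results of these data known. Named were every member past the threshold, a fixed set of central factors, and in each role the member with the highest level per length and the one with the largest change, beside a few further members, which were added after their values were seen. Alternatives tried were limma-voom with group weights (limma 3.58.1), the study's own tool DESeq2 (1.42.0), upper-quartile scaling, library totals only, filters of at least 1 count in any library and at least 10 in every library, a block for the replicate number, other fold limits, and leaving out each library. Sequences at gene starts are RefSeq's (GRCh38.p14).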

Additional observations from a re-analysis of the deposited data

How the results depend on the processing

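The members' median log2 fold change lay between 0.05 and 0.11 over all alternatives, and 0 members were called lower in any of them. Members called higher numbered 0 to 5 when 1 library was left out, 1 at over 2-fold, 2 with library totals only and 3 or 4 otherwise. Other genes called higher numbered 6 with DESeq2, 5 with limma-voom, 6 with no fold limit, 1 at over 2-fold and 0 to 5 with a library left out. Those called lower numbered 5 with no fold limit, 1 at over 2-fold and 0 to 4 with a library left out. Without a Ctrl library no gene was called, and without PRMT3-KD library 1 or 2 edgeR called 1432 and 1353 genes higher, the spread then coming from the Ctrl pair alone (the lone library is assumed to vary like the other group). Over all genes DESeq2 called 842 higher and 992 lower, against 655 and 786. In the labels, the libraries of the groups share only a replicate number. The differences between libraries 1 and 2 of both groups correlated at 0.0379 across genes, which does not describe single genes. EIF3CL (12 and 0 counts in Ctrl, 39 and 0 in PRMT3-KD) and EEF1B4 (9 and 0, 7 and 0) had counts in library 1 only. EIF4EBP3 (0 and 4, 6 and 0) did not share this pattern, and its cause was not tested. With the replicate block, 3 members were called higher and EIF5A2 had an adjusted p of 0.0585. With library totals only, the log2 fold changes turned to -0.01 for EEF1AKMT1, EIF3H and MTOR, -0.02 for EEF1G and EIF4G2 and -0.0011 for EIF3K, and with limma-voom to -0.01 for EEF2KMT; the cause was not tested. With a library left out the sign turned within these ranges: EEF1AKMT1 -0.22 to 0.23, EEF1AKMT4 -0.30 to 0.83, EEF1AL9 -0.18 to 0.65, EEF1G -0.09 to 0.11, EEF2K -0.18 to 0.29, EEF2KMT -0.25 to 0.25, EIF1AD -0.07 to 0.28, EIF2B1 -0.01 to 0.36, EIF2B2 -0.24 to 0.01, EIF3B -0.14 to 0.23, EIF3H -0.07 to 0.12, EIF3K -0.07 to 0.12, EIF4A2 -0.04 to 0.13, EIF4B -0.08 to 0.23, EIF4E3 -0.46 to 0.46, EIF4EBP1 -0.23 to 0.02, EIF4G2 -0.00081 to 0.02, EIF5 -0.26 to 0.04, EIF5AL1 -0.47 to 0.12, MTOR -0.08 to 0.12 and PABPC1 -0.26 to 0.03. None of these genes was called with all 4 libraries.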
